A study of Mus musculus with 24 samples.

Results

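The CD300 receptors are immunoglobulin-domain proteins of the cell surface, and 7 of their genes were followed here among the 55487 genes of the count table: Cd300lg, Cd300a, Cd300lf, Cd300lb, Cd300ld, Cd300c2 and Cd300e. They were picked by symbol, and Cd300lg was picked because it stood among the largest genotype differences on day 7, so the day 7 values chose it and are given without a test. The rule had no numerical threshold. All 7 passed the filter on low counts, although Cd300e had at most 3 counts in 7 of the 24 libraries.

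Messenger RNA was sequenced from mouse bone-marrow-derived dendritic cells, which are grown from marrow with the growth factor GM-CSF. All donor mice carried floxed Arpc4 (ARPC4 Flox/Flox), with no Cre transgene in those called WT (CD11c-Cre -/-) and with CD11c-Cre +/- in those called KO. Arpc4 encodes a subunit of the Arp2/3 complex, which nucleates branched actin, and the series concerns what that complex does in dendritic-lineage cells. Each genotype was sampled daily from day 7 to day 10 in 3 mice, giving 8 groups and 24 libraries. Donor mice of both genotypes were 8 to 10 weeks old and of both sexes, all cultures were passaged on days 4 and 7, and suspended cells were kept while adherent ones were discarded. CD11c-Cre acts in cells that express CD11c, and the cultures were sequenced in bulk, so fewer cells with a transcript and less transcript per cell cannot be told apart.

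The CD300 family pairs inhibitory receptors, whose cytoplasmic tails carry tyrosine motifs that recruit phosphatases, with activating receptors that have short tails and signal through adaptor proteins such as DAP12 (gene Tyrobp) or the Fc receptor gamma chain (gene Fcer1g). Several members bind lipids, among them phosphatidylserine exposed on dying cells, and myeloid cells carry most of them. Cd300lg differs from the rest: it encodes nepmucin, a mucin-like adhesion receptor known from vascular endothelium.

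Library totals ran from 19952047 to 31049798 counts. Every dendritic cell marker listed (9 of 9) was detected in every library, with Itgax (CD11c) at 750 to 1661 CPM (read counts relative to the TMM-scaled library size), and the markers summed on day 7 to 2199 to 2670 CPM in WT and 2430 to 2958 in KO, against 4698 to 6245 and 4404 to 7067 on day 10. Detection in every library also held for all listed monocyte, macrophage, neutrophil, mast cell or basophil and B cell markers. It therefore does not set the dendritic list apart. WT day 7 sums of monocyte (2931 to 3866 CPM), macrophage (4701 to 5547) and neutrophil (3138 to 4694) markers exceeded the dendritic cell sums. Those of mast cell or basophil and B cell markers lay below, and KO showed the same order. By day 10 WT macrophage sums (1603 to 1682 CPM) lay below the dendritic cell sums. On day 7, Arpc4 stood at 188 to 199 CPM in WT and 155 to 182 in KO, and the genotypes did not overlap on any day. The Y-linked transcript Ddx3y was high in WT mouse 63 on each day, but in KO it was high in the library labelled mouse 64 on days 7 and 9, mouse 68 on day 8 and mouse 67 on day 10. The KO mouse numbers therefore do not follow 1 animal through the culture, and KO libraries are named below by their labels only.

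Of 12 family genes in the table, 11 lie side by side on chromosome 11 over 244.0 kb (chr11:114890041-115133992, GRCm38, GENCODE M21), including 6 of the 7 followed here. Cd300lg (ENSMUSG00000017309.11, chr11:102041509-102055620, plus strand) lies 12.8 Mb away from them. In the order of the cluster the others are Cd300a (ENSMUSG00000034652.12, chr11:114890041-114904654, plus strand), Cd300lb (ENSMUSG00000063193.8, chr11:114922781-114934386, minus strand), Cd300ld (ENSMUSG00000034641.2, chr11:114982274-114989922, minus strand), Cd300c2 (ENSMUSG00000044811.13, chr11:114996721-115001880, minus strand), Cd300e (ENSMUSG00000048498.7, chr11:115051917-115062177, minus strand) and Cd300lf (ENSMUSG00000047798.15, chr11:115116214-115133992, minus strand). All are annotated as protein-coding, and the values below are whole-gene counts over their exons. At most 3.23% of a member's 100-base transcript windows occurred in another gene (Cd300c2, shared with Cd300a), and none did for Cd300lg, Cd300e and Cd300lb. Cd300lf overlaps Rab37 on the opposite strand, but the counts given to Rab37 were 1.88% of those given to Cd300lf.

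The promoter sequences below come from RefSeq (GRCm38.p6) and show the members whose transcripts were abundant. Each is written 5′ to 3′ on the gene's own strand and ends at the RefSeq start or, where the GENCODE gene model begins earlier, just before that model. The PU.1-type core GAGGAA (or its reverse complement TTCCTC), named for a factor of myeloid cells, and the C/EBP-type motif TTNNGCAA (or TTGCNNAA) were searched on both strands and are in capitals.
Cd300a: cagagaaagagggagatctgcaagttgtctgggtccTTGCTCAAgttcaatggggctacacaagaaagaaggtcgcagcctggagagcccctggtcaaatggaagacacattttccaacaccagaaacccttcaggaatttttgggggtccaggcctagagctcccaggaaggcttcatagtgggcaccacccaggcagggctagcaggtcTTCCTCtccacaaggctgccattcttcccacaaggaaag
Cd300lf: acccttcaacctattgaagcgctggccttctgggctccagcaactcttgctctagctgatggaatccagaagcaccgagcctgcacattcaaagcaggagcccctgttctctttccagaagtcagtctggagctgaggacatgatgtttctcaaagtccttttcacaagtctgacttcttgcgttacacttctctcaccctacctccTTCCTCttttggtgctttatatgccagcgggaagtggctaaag
Cd300lb: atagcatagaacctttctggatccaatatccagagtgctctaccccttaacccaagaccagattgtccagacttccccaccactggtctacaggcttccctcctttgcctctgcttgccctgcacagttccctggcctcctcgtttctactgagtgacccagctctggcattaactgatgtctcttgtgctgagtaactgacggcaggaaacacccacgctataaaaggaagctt
Cd300ld: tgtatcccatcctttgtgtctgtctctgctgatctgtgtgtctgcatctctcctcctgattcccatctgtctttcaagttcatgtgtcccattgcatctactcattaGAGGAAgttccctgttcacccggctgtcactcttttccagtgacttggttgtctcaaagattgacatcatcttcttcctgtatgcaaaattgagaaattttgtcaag
Cd300c2: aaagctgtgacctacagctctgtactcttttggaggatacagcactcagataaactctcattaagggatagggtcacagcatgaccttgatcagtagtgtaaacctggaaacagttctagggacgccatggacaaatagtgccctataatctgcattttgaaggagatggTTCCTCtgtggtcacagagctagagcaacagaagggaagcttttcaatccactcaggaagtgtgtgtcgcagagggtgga
These are chr11:114889791-114890040, chr11:115133993-115134242, chr11:114934387-114934621, chr11:114989923-114990136 and chr11:115001881-115002130 in that order. GAGGAA stood in 4 of the 6 members found in the table (Cd300a, Cd300lf, Cd300ld and Cd300c2) against 23.3% of 32851 mouse promoters of 250 bases, and TTNNGCAA in 1 of 6 (Cd300a) against 9.56%. A match describes letters in a window and says nothing of binding. In Cd300a and Cd300lf the GAGGAA match began close to the start, at -39 and -43, whereas in Cd300ld it began at -143.

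The promoter of Cd300ld has a close relative in Cd300ld3, a scarcely expressed neighbour, which is shown so that the 2 can be read against each other (chr11:115048410-115048580).
Cd300ld3: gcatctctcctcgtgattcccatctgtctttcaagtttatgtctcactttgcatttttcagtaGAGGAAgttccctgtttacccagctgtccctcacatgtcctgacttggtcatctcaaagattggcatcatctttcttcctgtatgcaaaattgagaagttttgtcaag
In a local alignment of their full RefSeq windows of 250 bases before the start, which run past the shortened stretches printed here, 182 of 206 aligned bases were identical (88.3%), and both hold the capitalised GAGGAA. Their transcript levels were far apart: per length, Cd300ld ranged from 121.81 to 348.22 TPM (abundance scaled for gene length and library total, deposited by the authors) over the 24 libraries and Cd300ld3 from 4.36 to 14.31 TPM. For Cd300ld3, 80.9% of transcript windows also occur in Cd300ld5, so its own counts are uncertain.

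Compared per length, the members fell into an abundant and a scarce set. Cd300c2 was the most abundant at 321.64 to 671.66 TPM, followed by Cd300ld, then Cd300lb at 116.93 to 246.28 TPM, Cd300lf at 114.4 to 238.5 TPM and Cd300a at 79.29 to 171.03 TPM, and the ranges of neighbours in this order overlap. Cd300lg reached only 0.19 to 5.63 TPM and Cd300e 0 to 14.71 TPM. Among the 5 family genes outside the set, Cd300c ranged from 1.53 to 11.9 TPM, while Cd300ld2, Cd300ld4 and Cd300ld5 stayed at or below 1.93 TPM. Of transcript windows, 16.2% in Cd300ld2, 86.7% in Cd300ld4 and 100% in Cd300ld5 also occur in another gene, so these low counts are uncertain.

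**Figure D1:**
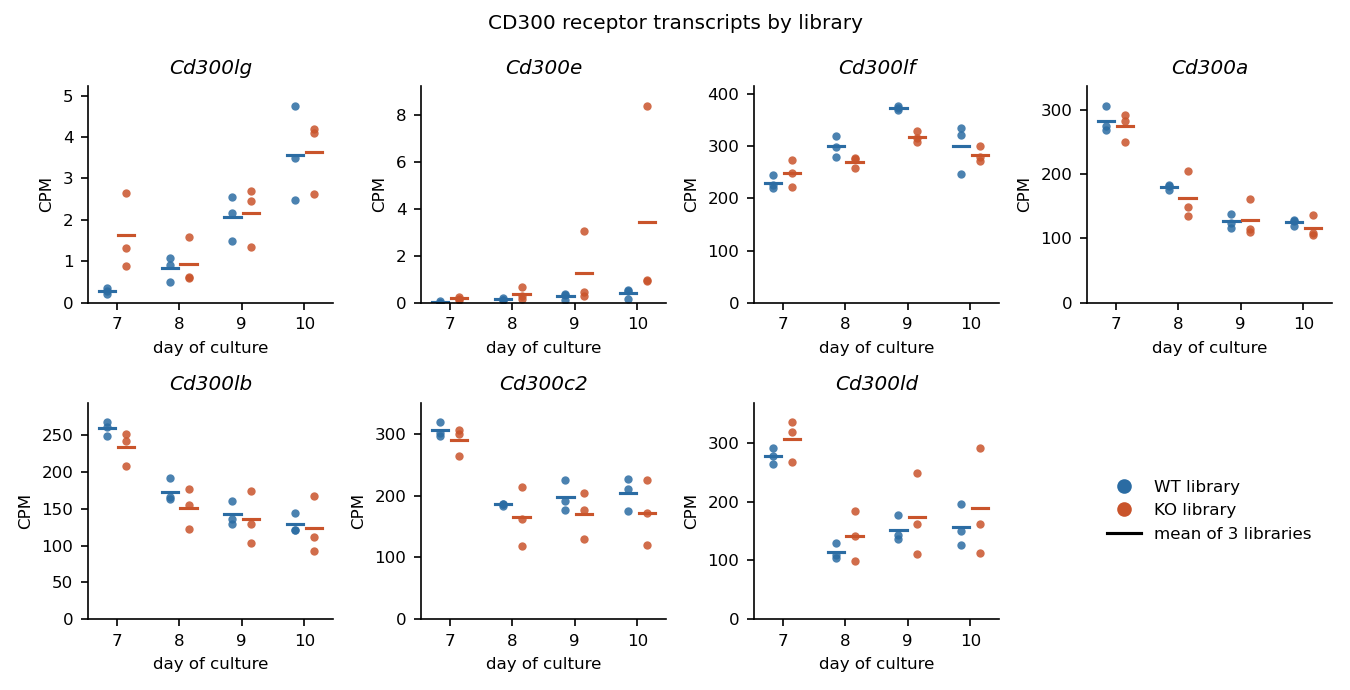
Transcript level (CPM, vertical axis from 0, separate scale per gene) by day of culture for each of the 7 genes, with 1 point per library and lines through the means of 3 libraries, WT and KO in separate colours. Cd300lg is low in WT on day 7 and has its highest mean on day 10 in both genotypes, the abundant activating receptors and Cd300a drop after day 7, and 1 KO library on day 10 carries Cd300e at 8.38 CPM.

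Cd300lg, the adhesion receptor, was nearly undetected in WT on day 7 and present in KO. On day 7 the WT libraries of mice 63, 65 and 66 held 0.201, 0.281 and 0.342 CPM (5, 6 and 8 counts), and the KO libraries labelled 64, 67 and 68 held 0.878, 2.66 and 1.33 CPM (22, 62 and 31 counts). Every KO library lay above every WT library, with KO 67 the highest. The fitted log2 fold change, KO against WT, was 2.54 (SE 0.53, n = 3 per group), and it was 2.00 without KO 67 and up to 2.85 without KO 64. On the log2(TPM + 1) scale it was 1.01, since a pseudocount shrinks the change of a gene this low. These day 7 values are a description, because they chose the gene.

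On later days the genotypes ran together. On day 8 the WT libraries held 0.908, 0.498 and 1.08 CPM and the KO libraries 0.625, 1.58 and 0.592 CPM. On day 9 the WT libraries held 2.17, 1.49 and 2.54 CPM and the KO libraries 1.34, 2.44 and 2.70 CPM. On day 10 the WT libraries held 3.49, 2.47 and 4.76 CPM and the KO libraries 4.20, 2.62 and 4.10 CPM. The groups overlapped on each of these days, and edgeR's quasi-likelihood test with Benjamini-Hochberg adjustment over 14535 genes gave log2 differences of 0.19 on day 8 (95% interval -0.78 to 1.16, adjusted p = 0.986), 0.07 on day 9 (-0.78 to 0.91, adjusted p = 0.994) and 0.03 on day 10 (-0.77 to 0.82, adjusted p = 0.995). Differences within these unadjusted intervals are not excluded by the data. Leaving out single libraries turned the sign of these small differences, for example to -0.44 on day 8 without KO 67.

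Ordered by group mean, Cd300lg was highest in KO day 10 (3.64 ± 0.89 CPM, SD, n = 3) and WT day 10 (3.57 ± 1.15), then KO day 9 (2.16 ± 0.73), WT day 9 (2.07 ± 0.53), KO day 7 (1.62 ± 0.93), KO day 8 (0.931 ± 0.559) and WT day 8 (0.828 ± 0.298). Each of these groups overlapped the one above it, and only WT day 7 (0.275 ± 0.071) lay wholly below its neighbour. Between day 8 and day 10, a comparison that leaves out the day 7 libraries, Cd300lg rose in WT by a log2 fold change of 2.11 (SE 0.42, adjusted p = 0.001 in edgeR) and in KO by 1.94 (SE 0.41, adjusted p = 0.00234 in edgeR), and the libraries of the 2 days did not overlap in either genotype. The genotypes' changes differed by -0.16 (SE 0.59, 95% interval -1.41 to 1.09, adjusted p = 1). In KO the call was lost when only the 6 libraries compared were fitted (adjusted p = 0.0599). From day 7, the fitted changes to day 10 were 3.69 in WT and 1.17 in KO, given without a test.

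Because Cd300lg is known from endothelium, endothelial markers were read beside it. Their day 7 sum was 392 to 411 CPM in WT and 381 to 451 in KO, and Vwf alone, at 111 to 426 CPM over all libraries, carried most of it. The more restricted markers Cldn5, Gpihbp1 and Sox17 had no count in 20 of 24 libraries each, and Cdh5 had 2 to 21 counts. Kdr (133 to 524 counts) and Pecam1 (221 to 1211 counts) were present in every library. Of the 7 endothelial markers tested, 5 were higher in KO on day 7, with a median log2 difference of 0.29. From day 8 to day 10 the endothelial sum moved in WT from a range of 159 to 188 CPM to one of 268 to 288, and in KO from 149 to 161 CPM to a range of 205 to 264. Of the 7 tested, Vwf rose and Esam fell in each genotype. That is near the share of all tested genes called, 30.7% in WT and 25.4% in KO. The median log2 changes were -0.22 in WT and -0.21 in KO, so the sum and the median went in opposite directions.

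Markers of other cells were also read on day 7, as signs and sizes of fitted differences with no test. Of the monocyte markers 10 of 11 had higher fitted values in KO (median log2 difference 0.54). Their sums were 2931 to 3866 CPM in WT and 3873 to 4527 in KO, nearly meeting at the edges. Among these markers Chil3 and Fn1 reached the highest levels, up to 2296 and 2492 CPM over all libraries. Of the mast cell or basophil markers 6 of 6 were higher (median 0.89), with sums of 65.0 to 82.2 CPM in WT and of 74.8, 232 and 142 in KO 64, 67 and 68. Of the neutrophil markers 7 of 10 were higher (median 0.49), with sums of 3138 to 4694 CPM in WT and 3778 to 7231 in KO.

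Dendritic cell markers had higher fitted values for 7 of 9 (median 0.42), and 4 of 9 did not overlap between genotypes on day 7, against 26.2% of all genes. The same count was 2 of 11 for monocyte, 2 of 9 for macrophage, 1 of 6 for mast cell or basophil, 0 of 10 for neutrophil and 0 of 7 for endothelial markers. Macrophage markers were higher for 7 of 9 (median 0.23), B cell markers for 1 of 4 (median -0.25), plasmacytoid dendritic cell markers for 0 of 2 (median -0.77) and T or NK cell markers for 1 of 2 (median 0.59). The median over all tested genes was -0.0136. Within KO, library 67 held the highest and library 64 the lowest monocyte, mast cell or basophil, neutrophil and dendritic cell sums, as for Cd300lg. The part of these cells in the Cd300lg difference was not tested.

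From day 8 to day 10, where 30.7% of all tested genes were called in WT and 25.4% in KO, dendritic cell marker sums went from 2727 to 3226 CPM to 4698 to 6245 in WT and from 2460 to 4264 CPM to 4404 to 7067 in KO. Of these markers 5 of 9 in WT and 4 of 9 in KO rose. Neutrophil markers rose for 6 of 10 in WT and 3 of 10 in KO, while macrophage markers fell for 6 of 9 and 4 of 9. Monocyte marker sums went from 1721 to 2095 CPM to 2241 to 3534 in WT, without overlap, and from 1593 to 2640 CPM to 1903 to 3005 in KO, and 3 of 11 rose and 1 fell in WT (median 0.50) and 1 rose and 1 fell in KO (median 0.16). Mast cell or basophil markers fell for 2 of 6 in WT (median -0.78) and 6 of 6 in KO (median -1.12), while Cd300lg rose. The part of the other cells in the rise of Cd300lg was not tested.

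The genes whose levels were most like those of Cd300lg, by Pearson correlation of log2 CPM over the 24 libraries among 11111 genes with an average log2 CPM above 1, were Gins1 (r = 0.95), Cstdc5 (0.95), Kif18b (0.94), Asf1b (0.94) and Cenpf (0.94). Gins1 encodes a subunit of a DNA replication complex, Kif18b a kinesin of mitosis, Asf1b a histone chaperone and Cenpf a kinetochore protein. For Cstdc5 no role in replication or mitosis is given here. All share libraries and days with Cd300lg, so the values are a description over 24 points. For the departures of the same libraries from their group means, which are part of the values that picked the genes, r ranged from 0.79 (Cenpf) to 0.89 (Kif18b).

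In level, Gins1 was 2.70 ± 0.34 CPM in WT and 4.88 ± 0.87 in KO on day 7, without overlap, and 7.63 ± 0.79 and 7.44 ± 1.26 on day 10 (SD, n = 3). Cenpf was 5.80 ± 0.32 CPM in WT and 14.6 ± 7.2 in KO on day 7, and 40.8 ± 8.9 and 40.3 ± 15.6 on day 10. Both were picked for their likeness to Cd300lg over these libraries, those of day 7 included, so their course over the groups is a description of that choice.

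**Figure D2:**
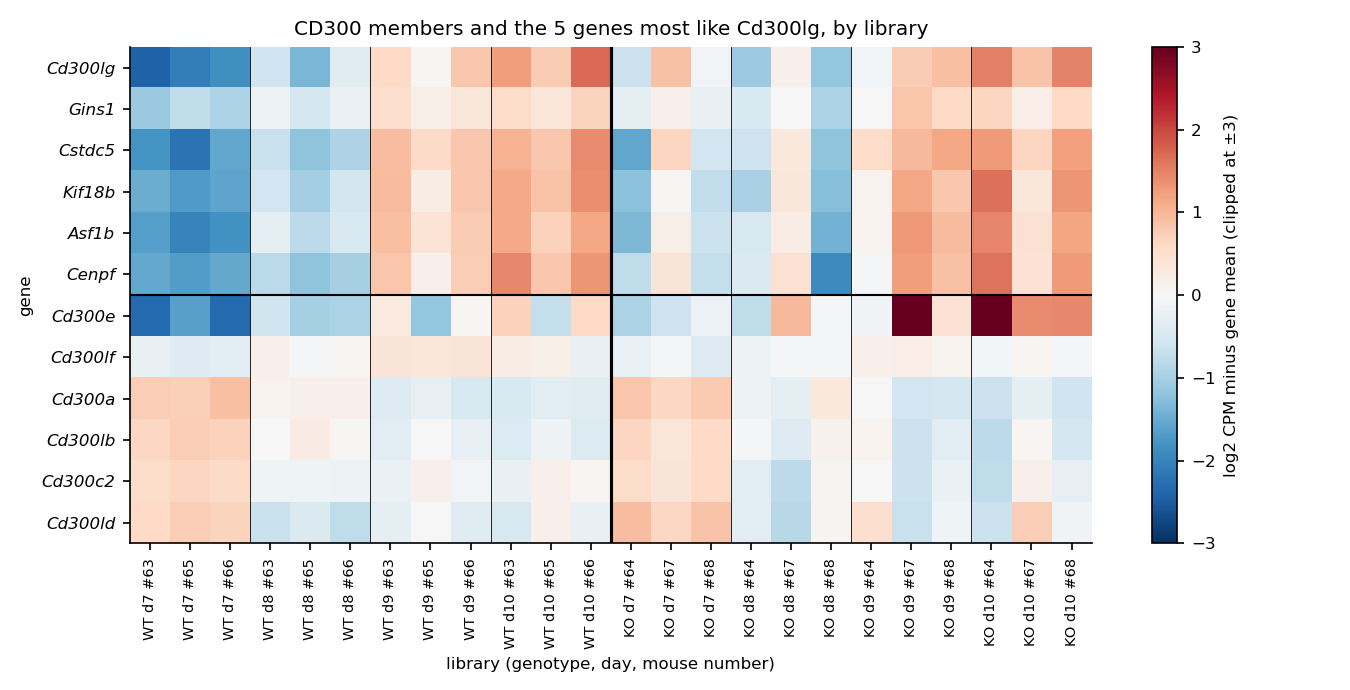
Colour shows log2 CPM minus the gene's mean over 24 libraries, clipped at 3 on either side, with libraries as columns (genotype, day and labelled mouse number) and genes as rows: the 5 genes most like Cd300lg by correlation beside the CD300 members. The WT day 7 columns are low for Cd300lg and its 5 likest genes, and the rows of Cd300a, Cd300lb, Cd300ld and Cd300c2 are highest on average in the day 7 columns of both genotypes.

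Among the inhibitory receptors, Cd300a fell over the culture in both genotypes, while a rise of Cd300lf passed the test in WT only. Cd300a, which binds aminophospholipids on dying cells, held 276, 269 and 307 CPM in WT and 293, 251 and 283 CPM in KO on day 7. By day 10 it held 120, 129 and 127 CPM in WT and 105, 136 and 109 CPM in KO, and all day 7 libraries lay above all day 10 libraries. It fell from day 7 to day 8 by a log2 fold change of -0.66 in WT (SE 0.14, adjusted p = 0.000977 in edgeR) and -0.76 in KO (SE 0.14, adjusted p = 0.000274 in edgeR), and again from day 8 to day 10 by -0.53 (adjusted p = 0.00895) and -0.48 (adjusted p = 0.0186). The later fall in KO was lost in turn without KO 68 of day 8 (adjusted p = 0.137) and without KO 64 (0.0749) or KO 68 (0.0836) of day 10. It was also lost when only the libraries compared were fitted (edgeR adjusted p = 0.146). On no day were the genotypes separated: the KO against WT log2 differences lay between -0.15 and 0.02 on days 8 to 10.

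Cd300lf, which carries inhibitory motifs and binds phosphatidylserine and ceramide, held 244, 221 and 226 CPM in WT on day 7 and 320, 280 and 299 CPM on day 8. Those WT groups did not overlap, and the gene rose by a log2 fold change of 0.38 (SE 0.09, adjusted p = 0.00274 in edgeR). It was highest in WT on day 9 at 378, 369 and 374 CPM, and stood at 335, 323 and 247 CPM on day 10. In KO it held 249, 274 and 221 CPM on day 7, 258, 276 and 278 on day 8, 317, 330 and 308 on day 9 and 271, 300 and 279 on day 10. The KO change from day 7 to day 8 was 0.13 (SE 0.09, adjusted p = 0.306). It passed the threshold on the TPM scale only (0.36, limma adjusted p = 0.0165), where the median of all genes moved by 0.17. From day 7 to day 10 the change was 0.39 in WT (SE 0.09, edgeR adjusted p = 0.00294). In KO it was 0.19 (SE 0.09, edgeR adjusted p = 0.116). The genotype difference in these changes from day 7 was not tested.

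Cd300lf was also the single member whose genotypes did not overlap on days 8 and 9, with every KO library below every WT library. The log2 differences were -0.15 (SE 0.09, adjusted p = 0.909) on day 8 and -0.23 (SE 0.09, adjusted p = 0.489) on day 9, and neither passed edgeR's test. No overlap was seen in 9.39% of all tested genes on day 8 and 14.1% on day 9, so 1 of 7 is near that background. On day 10 the groups overlapped and the difference was -0.09 (adjusted p = 0.901).

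The activating receptors Cd300lb, Cd300ld and Cd300c2 fell from day 7 to day 8 in both genotypes. Between the same days, where 22% of all tested genes were called lower in WT and 20.9% in KO, macrophage marker sums went from 4701 to 5547 CPM to 2789 to 3086 in WT and from 3959 to 6782 CPM to 1906 to 3936 in KO, and 3 of 9 fell and 2 rose in WT and 4 fell in KO. Monocyte marker sums went from 2931 to 3866 CPM to 1721 to 2095 in WT and from 3873 to 4527 CPM to 1593 to 2640 in KO, and 5 of 11 fell and 2 rose in WT and 6 fell and 1 rose in KO. Their part in the fall of the receptors, Cd300a included, was not tested. Cd300lb, which signals through DAP12, held 249, 268 and 261 CPM in WT and 251, 209 and 243 CPM in KO on day 7. On day 8 it held 163, 191 and 166 CPM in WT and 155, 122 and 177 CPM in KO, below every day 7 library of its genotype. The log2 fold changes were -0.58 in WT (SE 0.19, adjusted p = 0.0151 in edgeR) and -0.63 in KO (SE 0.19, adjusted p = 0.00968 in edgeR). The WT call was lost without mouse 63 (adjusted p = 0.061) or 66 (0.0561) of day 8, and the KO call without KO 67 of day 8 (0.0626). By day 10 the level was 129 ± 13 CPM in WT and 124 ± 38 in KO (SD, n = 3), with changes from day 7 of -1.01 (adjusted p = 0.000279) and -0.92 (adjusted p = 0.000693).

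Cd300ld, an activating member that uses the Fc receptor gamma chain, had the largest log2 fall of the members called between days 7 and 8. It held 265, 292 and 278 CPM in WT on day 7 and 110, 130 and 104 CPM on day 8, and in KO 336, 268 and 319 CPM on day 7 and 141, 99.1 and 185 CPM on day 8. Neither genotype's days overlapped, and the log2 fold changes were -1.28 in WT (SE 0.29, adjusted p = 0.00146 in edgeR) and -1.12 in KO (SE 0.29, adjusted p = 0.00417 in edgeR). Day 10 held 126, 196 and 150 CPM in WT and 112, 292 and 163 CPM in KO, and the changes from day 8 to day 10 did not pass the test (0.46, adjusted p = 0.247, and 0.41, adjusted p = 0.314). KO 67 on day 10 was as high as the WT libraries of day 7, while KO 64 lay below every WT library of day 10.

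From day 7 to day 10, Cd300ld fell in WT by a log2 fold change of -0.82 (SE 0.29, adjusted p = 0.0314 in edgeR), and the KO value of -0.70 (SE 0.29, adjusted p = 0.0625) missed the threshold. The KO value passed in limma voom, at -0.81, alike with no mouse number (adjusted p = 0.0355) and with mouse number as labelled as a replicate block (0.0351). With KO numbers exchanged so that 1 number keeps high Ddx3y, a setting chosen after seeing the data, the KO value passed too (limma voom adjusted p = 0.00379). It also passed with DESeq2 (-0.70, adjusted p = 0.0383), without the filter on low counts (-0.69, edgeR adjusted p = 0.0207), with Xist as a covariate (-0.74, edgeR adjusted p = 0.0344) and without KO 67 of day 10 (-1.16, adjusted p = 0.00267), which makes 7 of 17 alternatives. The WT call was lost in the TPM fits (limma adjusted p = 0.0702 with a pseudocount of 1, where the median of all genes moved by 0.21). It was also lost when any of the 3 day 7 libraries, or mouse 63 or 66 of day 10, was left out. Over these settings the adjusted p reached 0.123.

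Cd300c2, the most abundant member per length, held 296, 319 and 302 CPM in WT and 299, 264 and 307 CPM in KO on day 7. On day 8 it held 186, 187 and 184 CPM in WT and 162, 118 and 214 CPM in KO, again with no overlap between days. It fell by a log2 fold change of -0.72 in WT (SE 0.20, adjusted p = 0.00678 in edgeR) and -0.82 in KO (SE 0.20, adjusted p = 0.00282 in edgeR). From day 8 to day 10 the changes were 0.13 and 0.06 and did not pass (adjusted p = 0.654 and 0.858). The net change to day 10 was -0.59 in WT (adjusted p = 0.0272) and -0.75 in KO (adjusted p = 0.0061). The WT net call was lost in the same settings as for Cd300ld, with adjusted p up to 0.119.

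**Figure D3:**
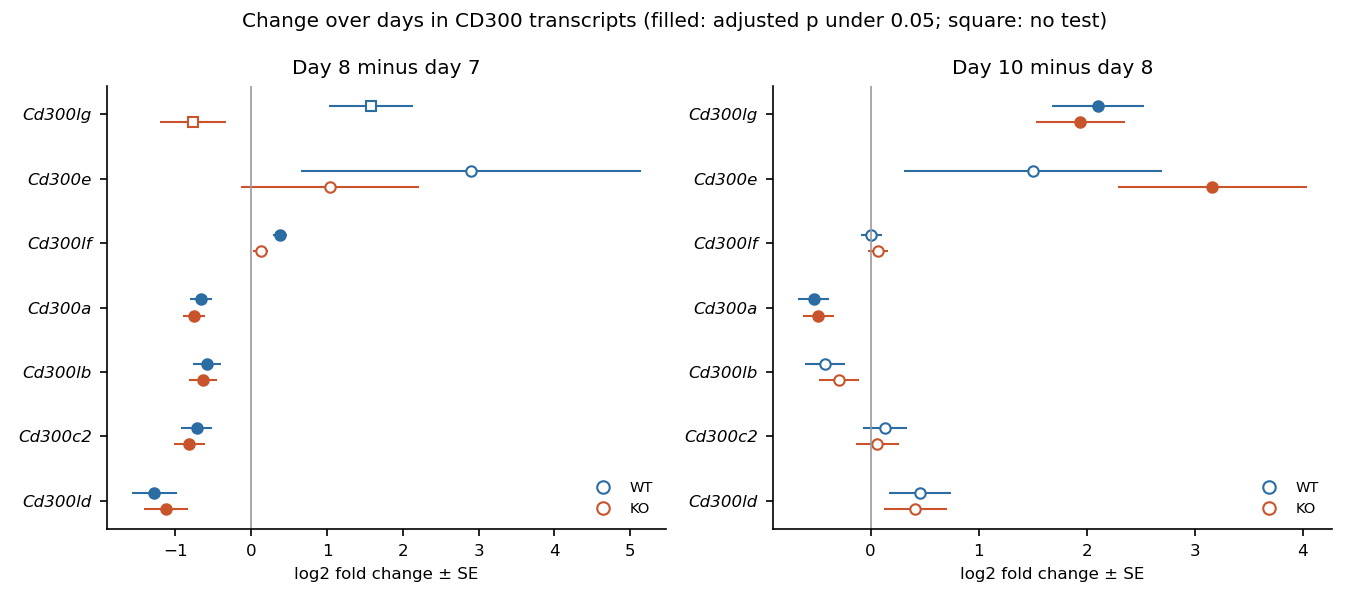
Log2 fold change ± SE (horizontal axis) of each member between days, in WT and KO, with filled points for an adjusted p under 0.05 and squares for the Cd300lg contrasts with day 7, which carry no test. Cd300a, Cd300lb, Cd300ld and Cd300c2 lie left of 0 from day 7 to day 8 in both genotypes, and Cd300lg lies right of 0 from day 8 to day 10.

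Counted over the members other than Cd300lg, 4 of 6 fell and 1 (Cd300lf) rose from day 7 to day 8 in WT, and 4 of 6 fell in KO. In the same contrasts 43.4% of all tested genes were called in WT and 42% in KO, and by direction 22% (WT) and 20.9% (KO) of tested genes were lower and 21.5% (WT) higher. From day 8 to day 10, 2 of 7 were called in WT (Cd300lg higher, Cd300a lower) against 30.7% of genes, and 3 of 7 in KO (Cd300lg and Cd300e higher, Cd300a lower) against 25.4%. From day 7 to day 10, 5 of 6 were called in WT against 37% of genes and 4 of 6 in KO against 36.8%. The median log2 change of the 6 was -0.62 in WT and -0.69 in KO from day 7 to day 8, beside -0.0038 and 0.0018 over all genes. The 2 of 7 called in WT from day 8 to day 10 is near the share of all genes. The KO count from day 8 to day 10 and the WT count from day 7 to day 10 were smaller in some alternative settings, given under the processing below.

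Cd300e, an activating receptor known from monocytes, was the rarest member in WT and uneven in KO. The WT libraries of mice 63, 65 and 66 held 0, 1 and 0 counts on day 7, 5, 3 and 3 on day 8, 8, 2 and 7 on day 9 and 15, 4 and 14 on day 10. The KO libraries labelled 64, 67 and 68 held 3, 4 and 6 counts on day 7, 4, 20 and 7 on day 8, 8, 105 and 13 on day 9 and 281, 28 and 32 on day 10. A single KO library led on each of days 8, 9 and 10: KO 67 on days 8 and 9 and KO 64 on day 10.

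On day 10 the KO libraries held 8.38, 0.927 and 0.944 CPM and the WT libraries 0.534, 0.157 and 0.493 CPM, without overlap, as in 10.4% of tested genes. The log2 difference of 3.09 (SE 0.87, n = 3 per group) did not pass edgeR's test (adjusted p = 0.308). It shrank to 1.23 (adjusted p = 0.789) without KO 64, and it passed (adjusted p = 0.0349) when no filter on low counts was applied. The differences on days 8 and 9, of 1.43 (SE 1.20, adjusted p = 0.934) and 2.25 (SE 0.98, adjusted p = 0.546), also missed, and that of day 9 was 0.42 without KO 67. On day 7 the genotypes held 13 counts in KO and 1 in WT over 3 libraries each, a depth-adjusted ratio of 12.6 (95% interval 1.90 to 536, counting error only). Like the other day 7 genotype values, this ratio is a description, and its interval is not a test of genotype.

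Over time, Cd300e rose in KO from day 8 to day 10 by a log2 fold change of 3.16 (SE 0.87, adjusted p = 0.0122 in edgeR), a call that was lost without KO 64 of day 10 (1.29, adjusted p = 0.254) or KO 64 of day 8 (2.77, 0.0625). In limma voom it was 2.57 both without mouse number (adjusted p = 0.0662) and with the labelled number as a replicate block (0.0659), and in a fit of only the 6 libraries compared the adjusted p was 0.126. A block with KO numbers exchanged so that 1 number keeps high Ddx3y, a setting chosen after seeing the data, restored the call, as given under the processing below. From day 7 to day 10 the KO rise was 4.20 (SE 0.99, adjusted p = 0.00235 in edgeR), and 2.34 (adjusted p = 0.0507) without KO 64 of day 10. In WT, 33 counts on day 10 stood against 1 on day 7, and the fitted change of 21.1-fold (SE 1.85 on the log2 scale) missed edgeR's threshold (adjusted p = 0.0684). The depth-adjusted ratio of these counts was 28.0 (95% interval 4.69 to 1140, counting error only, which leaves out the spread between libraries). The genotypes' changes from day 8 to day 10 differed by 1.66 (SE 1.60, adjusted p = 1).

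The genes most like Cd300e over the 24 libraries were Reps1 (r = 0.89), Sbf1 (0.89), Mta2 (0.89), Crtc3 (0.88) and Wdfy4 (0.88). Wdfy4, which is known for its part in cross-presentation by dendritic cells, was 172 ± 8 CPM in WT and 235 ± 16 in KO on day 7, and 308 ± 27 and 373 ± 52 on day 10 (SD, n = 3). As for Cd300lg, these are descriptions over libraries that share days and depth, and Cd300e itself rests on few counts in most of them.

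**Figure D4:**
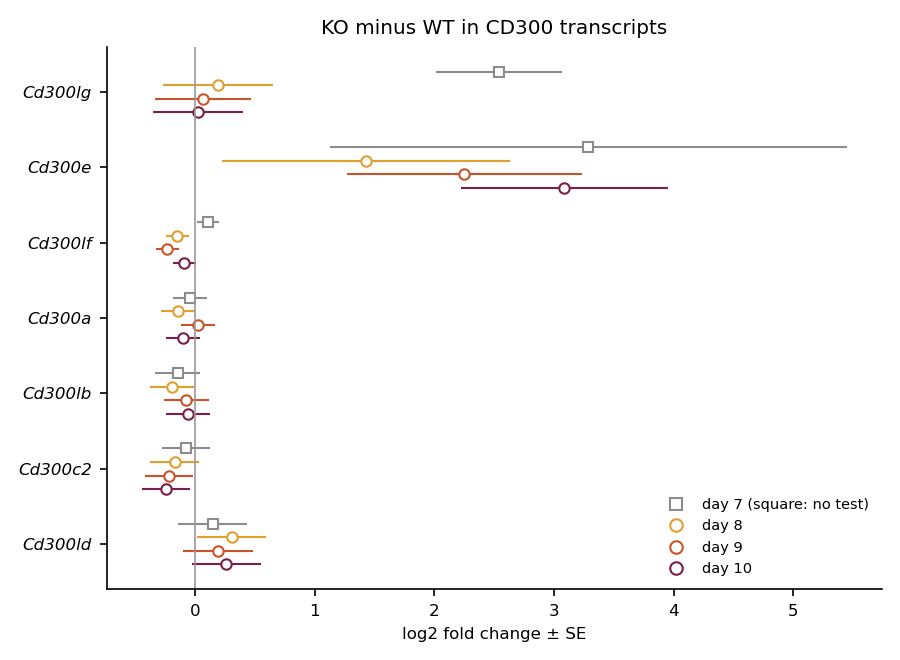
Log2 fold change ± SE of KO against WT (horizontal axis, 0 means equal) for each member on days 7, 8, 9 and 10, with day 7 shown without a test. No member passed the test on days 8 to 10, Cd300e sits farthest to the right with wide errors, and Cd300lg moves from 2.54 on day 7 to values near 0.

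Between genotypes on days 8, 9 and 10, 0 of 7 members passed edgeR's quasi-likelihood test, where 0.00688%, 0.00688% and 0.0138% of all tested genes did. At an unadjusted p under 0.05, Cd300lf and Cd300e on day 9 (0.0232 and 0.0331) and Cd300e on day 10 (0.00192) stood out, among 859, 1185 and 1061 genes of the table on the 3 days. DESeq2 called none of the 6 members to which it gave an adjusted p on these days (it gave none to Cd300e). On day 7, where 1.45% of genes were called, the members other than Cd300lg and Cd300e differed by -0.15 to 0.15 in log2 (a description, with no test). Cd300lg and Cd300e did not overlap between genotypes on that day, as 26.2% of genes did not, and since the day 7 values chose Cd300lg nothing is read from that. The difference between genotypes in the change from day 8 to day 10 was called for 0 of 7 members and 0 of 14535 genes by edgeR, with 326 genes at an unadjusted p under 0.05.

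Within groups, Cd300a, Cd300lb, Cd300ld and Cd300c2 moved together from library to library, and Cd300lg and Cd300e moved in the opposite direction. The departures of Cd300lb and Cd300ld from their group means correlated at r = 0.98 over 24 libraries, those of Cd300c2 and Cd300ld at 0.95, and those of Cd300lb and Cd300lg at -0.74. Those of Cd300e correlated at -0.77 with Cd300lb and at -0.79 with Cd300ld. Cd300lf stood apart, at 0.00 with Cd300lb. These points share libraries and depth, and the values are a description.

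The same libraries led this pattern. KO 67 on days 7, 8 and 9 and KO 64 on day 10 held the lowest Cd300a, Cd300lb, Cd300ld and Cd300c2 of their groups. Conversely, the KO library with high Ddx3y (labelled 64, 68, 64 and 67 on days 7 to 10) held the highest Cd300a, Cd300lb and Cd300ld and the lowest Cd300lg of its group on all 4 days. In WT, mouse 63 (high Ddx3y) did not hold those places on all days. Mouse 65 held the highest Cd300lb and Cd300ld on all 4 days and the lowest Cd300lg on days 8 to 10. The libraries of mouse 65 also held the lowest WT monocyte marker sums on all 4 days (2931, 1721, 1802 and 2241 CPM) and the highest WT macrophage marker sums on days 7 to 9 (5547, 3086 and 2068 CPM).

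Sums of some cell type markers moved with the KO pattern. KO 67 on days 7, 8 and 9 and KO 64 on day 10 held the lowest macrophage marker sums of their groups (3959, 1906, 1622 and 1460 CPM) and the highest dendritic cell marker sums (2958, 4264, 5868 and 7067 CPM) and mast cell or basophil marker sums (232, 221, 190 and 90.2 CPM). Neutrophil and monocyte marker sums were highest in KO 67 on days 7 and 8 but in KO 68 on days 9 and 10. The high-Ddx3y KO libraries held the lowest dendritic cell marker sums on all 4 days (2430, 2460, 3268 and 4404 CPM). The part of these cells, of sex and of animal in the KO and WT patterns was not tested.

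Of the signalling partners of CD300 receptors, 15 were listed and tested, and 0 passed the genotype test on days 8, 9 or 10. Their fitted values were nonetheless higher in KO for 9, 13 and 12 of 15 on these days (median log2 differences 0.03, 0.08 and 0.11), with no overlap for 3, 5 and 4 of 15 against 9.39%, 14.1% and 10.4% of all genes. On day 7, given without a test, 14 of 15 were higher (median 0.14) and 7 of 15 did not overlap, against 26.2%. DAP12, encoded by Tyrobp, is an adaptor of activating CD300 receptors, Cd300lb among them. Tyrobp held 1030 ± 37 CPM in WT and 1071 ± 91 in KO on day 7 and 646 ± 27 and 628 ± 68 on day 8 (SD, n = 3). It fell by a log2 fold change of -0.67 in WT (SE 0.15, adjusted p = 0.00123 in edgeR) and -0.77 in KO (SE 0.15, adjusted p = 0.000379 in edgeR), sizes close to those of Cd300lb. Hcst, which encodes the related adaptor DAP10, fell by -0.65 and -0.86 (adjusted p = 0.00702 and 0.000803), and the linker gene Grb2 by -0.56 and -0.55. In the opposite direction Il4ra, the interleukin receptor chain that Cd300lf is known to associate with, rose by 1.09 in WT and 0.83 in KO (adjusted p = 3.33e-08 and 9.21e-07).

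Fcer1g, the gamma chain that Cd300ld uses, held 603 ± 33 CPM on day 7 and 592 ± 11 on day 8 in WT. In KO it held 630 ± 44 and 599 ± 60 CPM. Its changes of -0.03 and -0.07 did not pass the test (edgeR adjusted p = 0.887 and 0.656). By day 10 it had fallen from its day 7 level by -0.35 in WT (adjusted p = 0.0291) and -0.41 in KO (adjusted p = 0.0118). Of the phosphatase genes that act behind Cd300a and Cd300lf, Ptpn6 (SHP-1) was 201 ± 8 CPM in WT on day 7 and 254 ± 26 on day 8, a log2 change of 0.34 (adjusted p = 0.0791), and Inpp5d (SHIP-1) was 253 ± 10 and 313 ± 17 CPM, a rise of 0.31 (SE 0.06, adjusted p = 0.000457). In KO those changes were 0.15 and 0.11 and did not pass, and Inpp5d held 289 ± 8 CPM on day 7 and 313 ± 8 on day 8. The genotype difference in the change from day 7 to day 8 was not tested. Over the list, 7 partners rose and 4 fell in WT and 4 rose and 4 fell in KO from day 7 to day 8, contrasts in which 43.4% and 42% of all tested genes were called.

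Of 29 related immunoglobulin-type and lectin receptors listed, 26 were tested and 0 passed the genotype test on days 8 to 10. From day 7 to day 10, 8 rose and 10 fell in WT, and 5 rose and 11 fell in KO, where 37% and 36.8% of all tested genes were called. Fcgr4, an activating Fc receptor, fell by -2.26 and -2.49 (SE 0.29 each, edgeR adjusted p = 6.23e-06 and 2.35e-06), from 150 ± 12 to 31.3 ± 5.9 CPM in WT. Siglecg, an inhibitory receptor for sialic acids, rose by 2.71 and 2.38 (SE 0.38 and 0.37), from 2.40 ± 0.34 to 15.7 ± 2.8 CPM in WT. The median log2 change over the list was -0.16 in WT and -0.35 in KO, beside -0.70 and -0.73 for the 6 CD300 members other than Cd300lg and -0.015 and 0.0033 over all tested genes.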

How the data were processed

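The authors deposited raw counts per gene for 55487 genes and TPM values per gene, with a table of symbols. Per the submitters' processing notes the tools were FastQC 0.11.9, STAR 2.6.1 and DESeq2 1.22.2 on mm10, while the counter and its strand setting are not given in the sources used here. Of the identifiers, 55094 matched GENCODE M21 with version, the 7 members among them. The labels name more than 1 library kit but do not assign kits to libraries, and a kit batch could not be modelled.

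Counts were tested with edgeR 4.0.16 in R 4.3.3: filterByExpr (14535 genes kept of 28655 with a count), TMM scaling, a quasi-likelihood fit of all 24 libraries with 1 coefficient per group and 16 residual degrees of freedom, and two-sided tests with Benjamini-Hochberg adjustment over all tested genes at 0.05. CPM carry the TMM factors. Deposited TPM served to compare levels between genes. The scripts were tested on simulated data. Ratios of few counts have exact 95% intervals that cover counting error only.

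Named were all 7 members, the other CD300 genes by level, Tyrobp, Fcer1g, Ptpn6 and Inpp5d with up to 3 called partners and 3 called related receptors per comparison by fold, and the 5 genes most correlated with Cd300lg and with Cd300e. The members and lists were chosen with earlier results of these data known. Alternatives were DESeq2 1.42.0 (size factors, Wald test), other filters, fits of the compared libraries only, limma 3.58.1 on log2 TPM with pseudocounts of 1 and 0.1, an Xist covariate, mouse number as a block in limma voom (and, added after seeing the data, limma voom without it), and leaving out each library. Same-numbered WT libraries, which the labels give as 1 mouse, had a mean r of 0.292 between their deviations (lowest 0.0030, 18 pairs). KO libraries as labelled had 0.0257. KO libraries with numbers exchanged on days 8 and 10, a setting chosen after seeing the data, had 0.488. Ddx3y places only the high-Ddx3y library of each day and does not settle the numbers of the other KO libraries. The 0.488 and the calls under that exchange therefore rest on a grouping chosen from these data. Replicate pairs differed by more than sampling noise, with a chi-square per degree of freedom of 7.1 or more.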

Additional observations from a re-analysis of the deposited data

How the results depend on the processing

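No KO against WT call was made on days 8 to 10 in any setting that gave the member a value, except 1 member on day 10 (Cd300e) without the filter on low counts. Cd300e had a value in 14 of 17 alternatives on days 8 and 9 and in 15 of 17 on day 10. Fitting only the libraries compared gave 4 calls from day 8 to day 10 in WT (2 as reported) and 0 in KO (3 as reported), while calls over all genes went from 4457 to 4737 in WT and from 3691 to 334 in KO and the KO log2 changes were 1.94 (Cd300lg), 3.16 (Cd300e) and -0.49 (Cd300a). The TPM scale of log2(TPM + 1) gave 3 calls from day 7 to day 10 in WT (5 as reported). On that scale the median of all genes moved between these days by 0.21 in WT and 0.25 in KO. With a pseudocount of 0.1 it moved by 0.26 and 0.30, so falls shrink and rises grow in the TPM fits. Leaving out single libraries gave 1 to 4 calls from day 8 to day 10 in KO, lowest without KO 64 and highest without KO 67 of day 10, and 3 to 5 from day 7 to day 10 in WT. Limma voom without mouse number, a setting chosen after seeing the data, already changed the calls of Cd300e from day 8 to day 10 in KO and Cd300ld from day 7 to day 10 in KO, and adding the replicate block of mouse number as labelled (estimated correlation 0.00464) changed no further call. With KO numbers exchanged (0.23), the block restored the call of Cd300e (adjusted p = 0.025 against 0.0662 without it) and added Cd300lb from day 8 to day 10 in WT (-0.43, adjusted p = 0.0154 against 0.0861). Besides Cd300ld from day 7 to day 10 in KO, which passed in 7 of 17 alternatives, calls gained in single settings were Cd300lf from day 7 to day 8 in KO on the TPM scales, Cd300lb (-0.43, adjusted p = 0.00473) and Cd300ld (0.45, 0.0351) from day 8 to day 10 in WT when only the libraries compared were fitted, Cd300lf from day 7 to day 10 in KO on the TPM scales and without KO 67 of day 7 (0.28, adjusted p = 0.0413), Cd300lb from day 8 to day 10 in KO without KO 67 of day 10 (-0.57, adjusted p = 0.0182), and Cd300e from day 7 to day 10 in WT without the filter (adjusted p = 0.0245) and with a TPM pseudocount of 0.1 (0.0176).

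Signs turned only for differences that did not pass the test or carried none, and the cause was not tested. Without a test, the KO against WT log2 difference of Cd300a on day 7 ran from -0.080 to 0.029 over the alternatives. Cd300lg on day 10 was -0.00060 with Xist as covariate, and its genotype difference in change was 0.0097 on log2(TPM + 1). Cd300lf on day 10 was 0.0049 and 0.0050 on the TPM scales with pseudocounts of 1 and 0.1. Its WT change from day 8 to day 10 was -0.00030 in the libraries compared, -0.0017 in limma voom with no mouse number or with the labelled block, and -0.0021 with the exchanged block.

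Leaving out single libraries gave the following ranges of log2 values. On day 8, KO against WT, Cd300lg ran from -0.44 to 0.43 and Cd300c2 from -0.40 to 0.019. On day 9, Cd300lg ran from -0.12 to 0.31, Cd300a from -0.18 to 0.13, Cd300lb from -0.30 to 0.093 and Cd300ld from -0.16 to 0.43. On day 10, Cd300lg ran from -0.17 to 0.30, Cd300lb from -0.33 to 0.12 and Cd300ld from -0.19 to 0.55. From day 8 to day 10, Cd300lf in WT ran from -0.076 to 0.12, and in KO Cd300c2 from -0.19 to 0.29 and Cd300ld from -0.048 to 0.68. The genotype difference in that change ran from -0.39 to 0.47 for Cd300lg, -0.088 to 0.24 for Cd300a, -0.32 to 0.16 for Cd300c2, -0.20 to 2.44 for Cd300e, -0.14 to 0.31 for Cd300lb, -0.50 to 0.23 for Cd300ld and -0.061 to 0.14 for Cd300lf.

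Depth limits Cd300lg and Cd300e, whose libraries hold 5 to 141 and 0 to 281 counts.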
